A study of Drosophila melanogaster with 10 samples.

Results

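RNA-seq libraries of Drosophila melanogaster testes in which B9d1 had been knocked down were compared with libraries of testes mutant for sa. The comparison took the libraries by their labels: the 2 libraries labelled as B9d1 knockdown against the 2 labelled as sa-/- mutant, 4 of the 10 RNA-seq libraries of the series, across all genes. By its title, the series asks how B9d1, a protein of the ciliary transition zone, bears on the growth of spermatocytes and on their making of ribosomes. Levels in the other 3 conditions are given beside the pair only where they place a value.

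The male germ line of the fly passes from stem cells through dividing spermatogonia into spermatocytes, which grow through a long meiotic prophase, divide meiotically and become spermatids. Most genes used to build the sperm are transcribed in the spermatocyte and many of their mRNAs are stored until the spermatid stage. The transition zone controls which proteins pass into a cilium, and B9d1 belongs to a protein complex there. The protein of sa is a testis-specific relative of a TAF, one of the subunits of the general transcription factor TFIID. With the other testis TAFs and a second complex, tMAC, it is needed for the transcription of spermatid genes, and sa mutant spermatocytes are known to arrest before the meiotic divisions.

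B9d1 knockdown males (B9d1 KD) had the genotype w;B9d1RNAi;bam-Gal4, UAS-dicer2, in which a bam-driven Gal4 directs an RNA hairpin and extra Dicer-2 to late spermatogonia and early spermatocytes. They were raised at 22 °C for 3 days and then at 30 °C for 8 days, and the label gives young spermatocyte as the enriched stage. The sa mutant males (sa-/-) were raised at 22 °C for 12 days, carried no driver or hairpin by their label, and have mature spermatocyte as the enriched stage. Genotype, temperature, driver and labelled stage therefore differ together between the 2 conditions and cannot be told apart. A library came from the testes of 100 young males (100 pairs, age below 2 days), and ribosomal RNA was depleted. The wild-type males (WT), with all germ-cell stages by their label, were kept at 22 °C for 10 days. The other knockdowns, labelled Tektin-C KD and Klp59D KD, shared the driver and temperatures of B9d1 KD and are labelled as mature spermatocyte.

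The 4 libraries held between 17621525 and 26851858 counts. The 2 libraries of a condition differed by little more than counting error: over genes with 50 to 5000 counts, the median squared difference was 1.07 times the binomial value between the B9d1 KD libraries and 1.04 times between the sa mutant libraries, against 112.8 times between the summed conditions. They were therefore summed and each condition counted as 1 sample. The main results use no test between the conditions, so no difference below has a replicate check. A gene is called higher or lower where the summed levels differ at least 2-fold, on a log2 scale with a prior count of 2, and intervals are exact 95% limits that cover counting error only. Levels are given as CPM, the count scaled to a fixed library total, with totals adjusted by the trimmed mean of M-values (TMM). No strand setting of the counting is given in the sources used here, so a gene whose exons overlap another gene may hold its neighbour's reads; among the genes named below these are AttC, CG33125, CG33489, CG8852, COX6AL2, Cby, Cc2d2a, Cep135, CycE, Dcr-2, Est-6, Galphaf, Hsp27, Hsp70Ab, Mst87F, PIG-H, PolA1, Polr1C, Polr2L, Prtl99C, RIOK2, RagA-B, RpL39, RpS28-like, Rpn7, Rrp6, Spt7, TAF1B, Taf1, Tsp42Ei, Uhg1, aub, bam, bol, dj, eIF2gamma, eIF5, osk, scpr-B, twe and vls. In bulk testis, fewer cells of a type and less RNA per cell cannot be told apart.

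Both targeted genes of the pair went the way of their labels. B9d1, at 3R:15481906-15482904 of dm6, was at 8.91 and 9.91 CPM in the B9d1 KD libraries and at 193 and 195 in the sa mutant libraries. Both knockdown libraries lay far below all other conditions, with WT at 109 CPM. The summed level was 20.6-fold lower in B9d1 KD than in sa mutant (95% interval 18.9 to 22.5). The sa gene, at 3L:21405425-21406738, was at 164 and 169 CPM in B9d1 KD and at 3.73 and 3.24 in sa mutant. Here the sa mutant libraries were the low ones, and WT was at 39.2 CPM. That was a 48.1-fold difference (95% interval 41.3 to 56.3). In the other knockdowns the targets went against the labels: Tektin-C was low, at 12.1 CPM, under the label Klp59D KD, and Klp59D was low, at 29.7 CPM, under the label Tektin-C KD. In the pair compared here, Tektin-C was at 174 and 169 CPM in B9d1 KD and 60.2 and 60.0 in sa mutant, and Klp59D at 321 and 320 against 196 and 196.

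The transgenes have partners among the measured genes. Dcr-2, the siRNA-processing Dicer whose coding sequence UAS-dicer2 carries, was at 196 and 189 CPM in B9d1 KD and at 95.03 and 97.0 in sa mutant, a log2 difference of 1.00. WT lay between them at 142 CPM. Under the label Tektin-C KD Dcr-2 was at 90.5 CPM and under the label Klp59D KD at 102, near the sa mutant level. The eye-pigment transporter gene w, often used to mark transgenes, was at 60.5 and 58.2 CPM in B9d1 KD and at 5.79 and 4.76 in sa mutant. The other knockdowns were also high for w, at 67.2 CPM under the label Tektin-C KD and 44.2 under the label Klp59D KD. WT was at 28.3 CPM for w, between sa mutant and the knockdowns, so sa mutant was the lowest condition. bam itself, the gene of spermatogonial differentiation whose promoter drives Gal4, was at 27.9 and 26.3 CPM in B9d1 KD and at 38.8 and 38.4 in sa mutant, less than 2-fold apart.

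**Figure D1:**
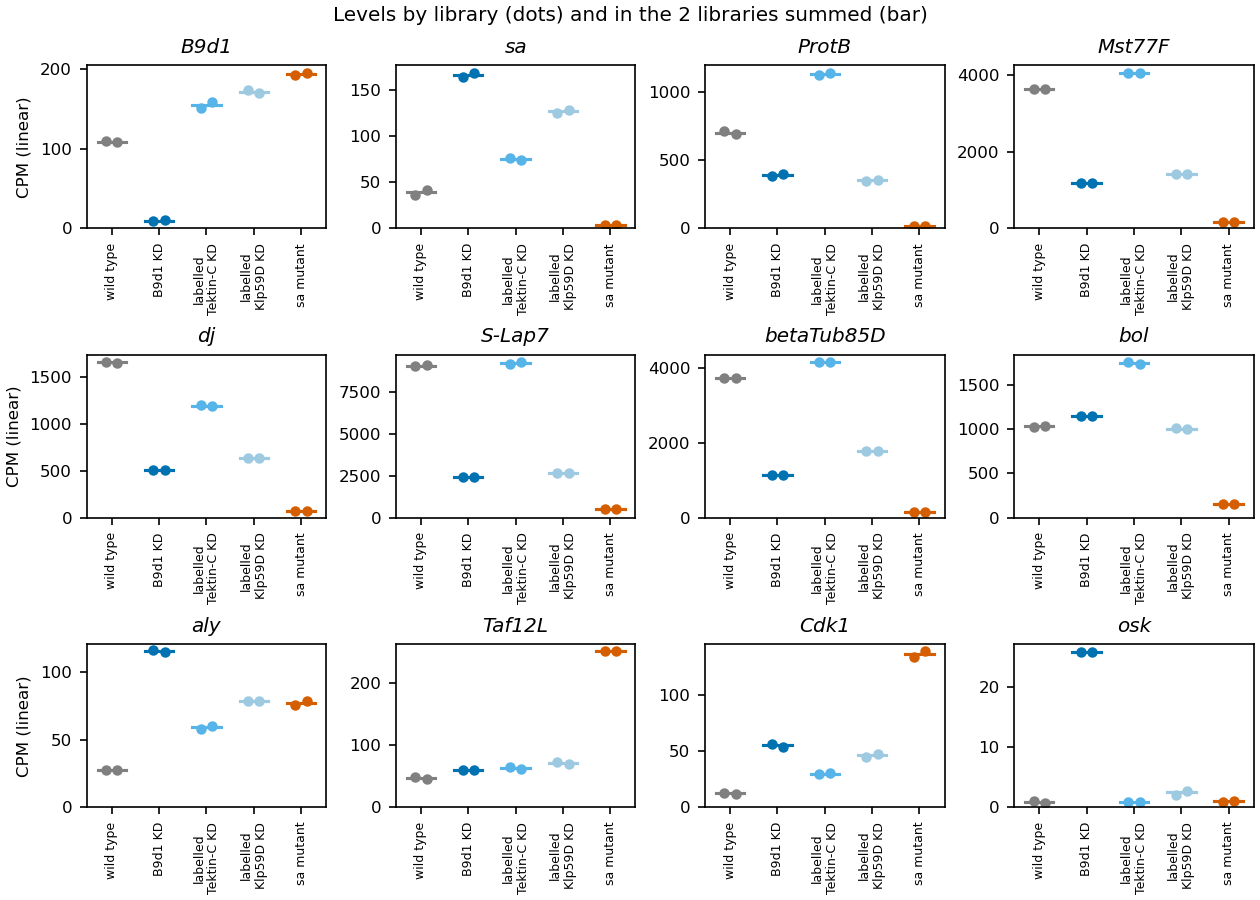
Levels in CPM (y axis, linear from 0) of 12 genes in the 5 conditions (x axis), with a dot for each library and a bar for the 2 libraries summed. B9d1 is low only in B9d1 KD and sa only in sa mutant; the spermatid genes ProtB, Mst77F, dj and S-Lap7 are lowest in sa mutant.

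Across the transcriptome, 5541 of the 13831 measured genes were at least 2-fold apart (40.1%). Of these, 3312 were higher in B9d1 KD (23.9% of all measured genes) and 2229 were lower (16.1%). At least 8-fold differences were found for 389 genes higher in B9d1 KD (2.81%) and 170 lower (1.23%). The median log2 difference of all genes was 0.05, and 8290 genes differed less than 2-fold. Scaling by library size alone moves that median to -0.14 and shifts every gene down by the same step, so that 49.6% rather than 59.8% of the genes apart are higher in B9d1 KD. Medians of gene lists below are therefore to be read against 0.05. Likewise, the members of a list called higher or lower are to be read against 23.9% and 16.1%, and several lists lie near these shares.

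**Figure D2:**
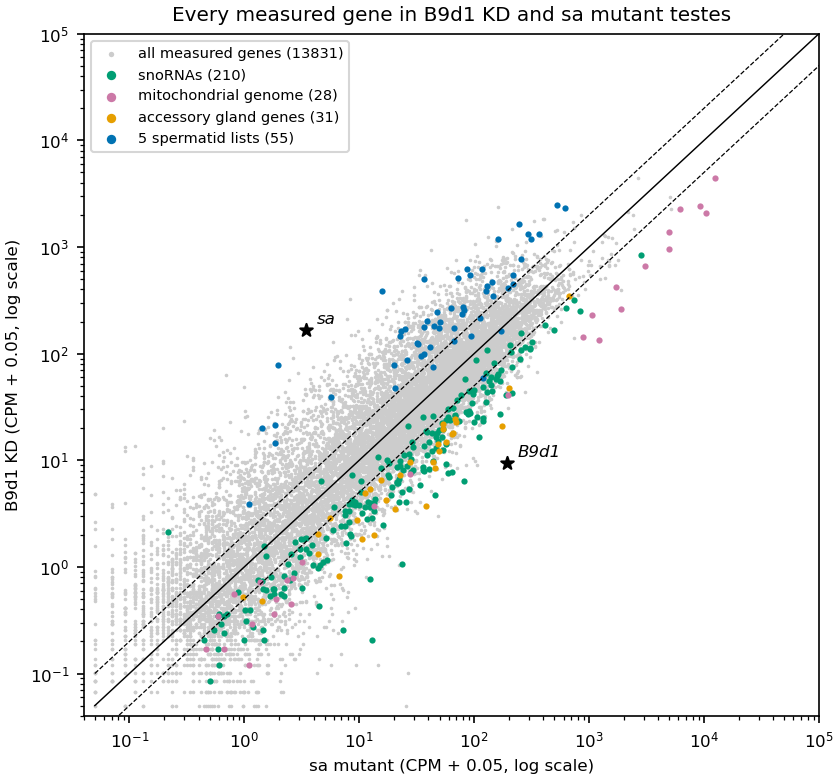
Each dot is 1 of the 13831 measured genes, with its level in sa mutant (x axis) and in B9d1 KD (y axis), both in CPM plus 0.05 on log scales; the solid line marks equal levels and the dashed lines a 2-fold difference. Genes of 5 spermatid lists lie mostly above the upper dashed line, and snoRNAs, mitochondrial transcripts and accessory gland genes mostly below the lower one.

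Setting the other conditions beside the pair gave 3 patterns, which can overlap, and a remainder. Of the 3312 genes higher in B9d1 KD, 1925 (58.1%) had a sa mutant level at least 2-fold below every other condition, WT included. For 269 of them (8.12%) it was B9d1 KD that lay at least 2-fold above every other condition. In a further pattern, all 3 knockdown conditions were at least 2-fold above both WT and sa mutant, and this held for 365 (11.0%). The other 845 (25.5%) had none of these patterns. The genes lower in B9d1 KD were spread differently. Their sa mutant level was at least 2-fold above every other condition for 661 of 2229 (29.7%), B9d1 KD was at least 2-fold below every other for 213 (9.56%), and all 3 knockdowns were at least 2-fold below both WT and sa mutant for 460 (20.6%). The largest class, 989 genes (44.4%), had none of these patterns.

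Ribosome biogenesis genes were mostly level or a little lower in B9d1 KD. Of 83 measured factors, 5 were higher, 10 lower and 68 less than 2-fold apart, with a median log2 difference of -0.24; among all measured genes 23.9% were higher and 16.1% lower. Scaled by library size alone, 2 were higher and 17 lower. NHP2, a core protein of the H/ACA particles that guide pseudouridylation of RNA, was at 9.28 and 10.1 CPM in B9d1 KD and 34.6 and 35.8 in sa mutant. RIOK2, a kinase of late small-subunit maturation, was at 51.2 and 53.2 CPM against 151 and 144. Mtr4, the helicase that feeds RNA to the nuclear exosome, was at 76.5 and 79.8 CPM against 193 and 198. These 3 were lower in B9d1 KD, by log2 differences of -1.86, -1.49 and -1.32. The nuclear exosome nuclease Rrp6 went the other way, at 442 and 432 CPM in B9d1 KD and 115 and 109 in sa mutant. So did mbm, a nucleolar protein of small-subunit biogenesis, at 49.5 and 48.3 CPM against 16.1 and 16.0.

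RNA polymerase I, which transcribes ribosomal DNA, had a gene list with a median close to that of the biogenesis factors. Of 13 genes for its subunits and initiation factors, 4 were lower in B9d1 KD and 1 was higher, with a median of -0.25. Among all measured genes 16.1% were lower and 23.9% higher. The subunit gene Polr1E was at 60.5 and 59.8 CPM in B9d1 KD and at 241 and 229.8 in sa mutant, a log2 difference of -1.97. Tif-IA, the initiation factor that ties the polymerase to growth signals, was at 75.7 and 74.8 CPM against 177 and 171. For both genes the sa mutant was also above WT, which was at 139 CPM for Polr1E and 62.6 for Tif-IA. Polr1C (-1.29) and Polr2L (-1.18), subunits shared with other polymerases, were the further genes lower in B9d1 KD, and TAF1B (1.01), part of the promoter-binding factor, was the higher one.

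The core proteins of small nucleolar ribonucleoproteins were mostly less than 2-fold apart: 2 of 11 were lower in B9d1 KD and none higher, with a median of -0.67; of all measured genes 16.1% were lower. Scaled by library size alone, 5 were lower. Besides NHP2, nop5, a scaffold of the C/D particles, was at 32.8 and 33.7 CPM in B9d1 KD and 68.97 and 66.7 in sa mutant. Its partner Nop56 differed by -0.95 and the methyltransferase Fib by -0.94. Of 72 cytosolic ribosomal protein genes all had a log2 difference below 0, from -1.19 to -0.02 with a median of -0.50, and 2 reached 2-fold. These were RpL39, at 77.6 and 78.9 CPM against 181 and 177, and RpL38, at 184 and 180.5 CPM against 385 and 386. With scaling by library size alone, 8 reached 2-fold. The spread of this list was narrow beside that of all genes, whose lower and upper quartiles were -0.66 and 0.95.

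Growth signalling genes, on the insulin, TOR and Myc axis, showed no common direction: 2 of 29 were higher in B9d1 KD and 3 lower. Pdk1, the kinase that activates Akt, was at 274 and 274 CPM in B9d1 KD and 70.6 and 73.2 in sa mutant. Mnt, the repressor that competes with Myc for its partner Max, was at 63.3 and 63.8 CPM against 28.1 and 29.3. The amino acid transporter slif (-1.28), the TOR pathway gene REPTOR-BP (-1.28) and the lysosomal GTPase RagA-B (-1.02) were the lower ones. General translation initiation and elongation factors were 3 higher and 1 lower of 38; eIF5 (1.58), which triggers GTP hydrolysis at the start codon, and the cap-binding eIF4E1 (1.37) were higher, and eIF2gamma (-1.32), a subunit of the initiator tRNA carrier, was lower.

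Counts of small structural RNAs differed far more than those of the genes for proteins that process them. Of 210 measured snoRNAs, the guides of rRNA modification, 172 were at least 2-fold lower in B9d1 KD and 1 was higher, with a median log2 difference of -1.47. Both guide classes were lower: 94 of 105 snoRNAs named for pseudouridine sites (median -1.73) and 43 of 56 named for methylation sites (median -1.23). The summed snoRNA level was 5775 and 5834 CPM in the B9d1 KD libraries, against 15880 and 15970 in the sa mutant libraries. The B9d1 KD level was the lowest of the 5 conditions, below the other knockdowns (10480 CPM for the label Tektin-C KD, 9354 for the label Klp59D KD) and WT (20510 CPM). Of the more abundant snoRNAs, snoRNA:Psi18S-640b had the largest difference, at 6.57 and 6.07 CPM in B9d1 KD and 78.3 and 83.2 in sa mutant. It was also low in the other knockdowns, at 9.44 CPM and 8.72. snoRNA:Me28S-A774a, at 8.11 and 6.96 CPM against 60.1 and 59.1, was higher in those, at 40.2 CPM and 27.3. snoRNAs of near-identical copies may share reads. Whether the counts came from mature snoRNAs or from unspliced host RNA was not tested. Nor was the recovery of short RNAs in each preparation.

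Most fly snoRNAs are cut from the introns of other genes, and 182 of the 210 lay inside 60 measured host genes on the same strand. The hosts were level, with a median of -0.28, 3 lower and 5 higher in B9d1 KD. For 178 of the 182, the snoRNA's log2 difference was below that of its host, and for 121 it was below by at least 1, with a median gap of -1.47. The 57 snoRNAs inside 23 ribosomal protein genes had a median of -1.39 and those hosts one of -0.43. Uhg1, a noncoding host gene, was at 78.2 and 77.8 CPM in B9d1 KD and 13.6 and 13.3 in sa mutant, a log2 difference of 2.53. B9d1 KD was the highest of the 5 conditions for Uhg1, while the 12 snoRNAs measured inside it ranged from -1.78 to -0.67. Members of one host share its transcript and are not independent.

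**Figure D3:**
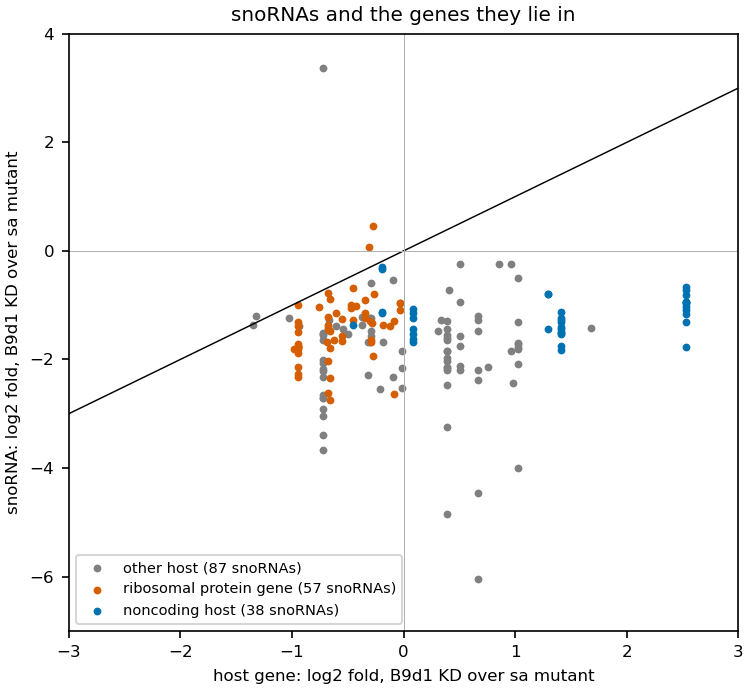
Each dot is 1 of 182 snoRNAs, with the log2 difference of its host gene (x axis) and its own (y axis), B9d1 KD over sa mutant; the line marks equality and colours give the kind of host. Of the 182, 178 lie below the line.

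Other short noncoding RNAs were lower as well. Of 28 spliceosomal snRNA genes 12 were lower and 2 higher (median -0.87), and of 29 nuclear tRNA genes 18 were lower and 1 higher (median -1.41). The tRNA genes held few counts, summing to 12.8 CPM in B9d1 KD and 34.6 in sa mutant. Their counting intervals had a median half-width of 1.235 on the log2 scale. The 14 scaRNAs, which guide modification of snRNAs, were lower in 12 cases. The RNAs of the signal recognition particle, RNase MRP and RNase P, 4 genes in all, lay between -1.18 and -1.11. Long noncoding RNAs showed the opposite balance: 483 of 1103 genes named as such were higher in B9d1 KD and 174 lower, with a median of 0.69. Their counting intervals were wide, with a median half-width of 0.75 on the log2 scale. With genes above 5 CPM in at least 2 of the 4 libraries, 146 were higher and 22 lower, and the median was 1.502.

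Transcripts of the mitochondrial genome were lower throughout. Of 28 measured mitochondrial genes 25 were at least 2-fold lower in B9d1 KD and none was higher, with a median of -1.98. The 13 protein-coding genes were all lower, from -3.17 to -1.44. Their summed level was 15430 and 15490 CPM in the B9d1 KD libraries, against 58180 and 58460 in the sa mutant libraries. The other knockdowns were low too, at 27070 CPM (labelled Tektin-C KD) and 24810 CPM (labelled Klp59D KD), and WT was at 99010. Nuclear genes of the respiratory chain did not share the difference: 3 of 62 were lower and none higher (median -0.35). Mitochondrial ribosomal proteins had 7 lower and 1 higher of 70 (median -0.36).

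Genes of the spermatid programme were mostly higher in B9d1 KD, the condition labelled young spermatocyte, than in sa mutant, labelled mature spermatocyte. All 7 sperm chromatin genes, which replace histones in the sperm nucleus, were higher, with a median log2 difference of 2.37. The protamine gene ProtB was at 383 and 395 CPM in the B9d1 KD libraries and at 16.2 and 15.5 in the sa mutant libraries, a 24.6-fold difference (95% interval 22.9 to 26.4). Its near copy ProtA was at 173 and 157 CPM against 24.6 and 21.7, and reads of the pair may be split uncertainly. Mst77F, a linker-histone-like sperm protein, was at 1178 and 1177 CPM against 162 and 162. In all of these genes the sa mutant was the lowest condition, and WT was at 698 CPM for ProtB, 208 for ProtA and 3646 for Mst77F. The transition protein Tpl94D (2.37), Prtl99C (1.98), tHMG1 (1.82) and tHMG2 (1.33) completed the group.

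The Mst genes of the sperm tail, short repeat proteins, were higher for 8 of 9 (median 1.74). Mst36Fa was at 77.5 and 79.5 CPM in B9d1 KD and 1.40 and 2.38 in sa mutant, a log2 difference of 5.32. Mst84Db was at 445 and 451 CPM against 216 and 218, while WT held 8374 CPM. Both conditions were thus far below WT for Mst84Db, and sa mutant was the lower of the 2. Mst87F was similar, at 414 and 409.8 CPM against 198 and 197 with WT at 3225. Of the 9, Mst84Dc missed the 2-fold line at 0.94.

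Sperm leucyl aminopeptidases, abundant proteins of the mitochondrial derivative of the sperm tail, were higher for 7 of 8 genes (median 2.04). S-Lap7 was at 2456 and 2467 CPM in B9d1 KD and at 527 and 533 in sa mutant. S-Lap8 was at 627 and 629.7 CPM against 86.0 and 86.0, the largest difference of the family at 2.87. Summed over the 8 genes the level was 10990 CPM in B9d1 KD, 2526 in sa mutant and 28620 in WT. The cup and comet genes, transcribed after meiosis and stored at spermatid tips, were higher for 13 of 14 (median 1.62). w-cup was at 511 and 501 CPM in B9d1 KD against 36.5 and 36.7 in sa mutant, and t-cup at 20.2 and 19.6 against 1.40 and 1.37. Of 17 further spermatid genes 14 were higher and 1 lower (median 1.96). dj, a protein of the sperm tail, was at 513 and 513 CPM against 73.9 and 70.6, with WT at 1652.

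The scpr genes behaved otherwise. These 3 genes of CAP-domain proteins, abundant in WT at 3868 (scpr-A), 2215 (scpr-B) and 3632 CPM (scpr-C), were low in both conditions. scpr-C was at 7.71 and 7.19 CPM in B9d1 KD and 30.4 and 29.8 in sa mutant. scpr-A was at 2.59 and 2.20 against 5.79 and 4.64, and scpr-B at 3.80 and 3.58 against 7.50 and 5.89. Here B9d1 KD was the lower condition, by log2 differences of -2.01, -1.11 and -0.85. The 3 copies are alike and reads may be shared among them.

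Axonemal genes were also mostly higher in B9d1 KD. Of 19 genes for dyneins of the sperm flagellum and their docking proteins, 14 were higher in B9d1 KD and 1 lower (median 1.71). Ccdc114, a docking-complex protein, was at 63.5 and 67.0 CPM in B9d1 KD and 3.20 and 2.58 in sa mutant, while WT held only 0.621 CPM. The heavy chain Dnah3 was at 141 and 139.5 CPM against 15.4 and 18.5, and the Y-linked heavy chain kl-2 at 40.3 and 39.3 against 7.63 and 8.12. Tektins, radial spoke and other accessory genes were higher for 10 of 13 (median 1.49); Tektin-A was at 203 and 200.4 CPM against 55.2 and 54.7. Testis beta-tubulin, betaTub85D, which builds the meiotic spindle and axoneme, was at 1144 and 1156 CPM against 156 and 154. By contrast the ubiquitous alphaTub84B was level, at 1273 and 1259 against 1383 and 1388.

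Transition zone genes, the class of B9d1 itself, did not move together. Of 9 measured genes, B9d1 was lower, 3 were higher and the other 5 were less than 2-fold apart. Cep290, a large protein linking membrane and axoneme in the transition zone, was at 208 and 206 CPM in B9d1 KD and 38.7 and 39.5 in sa mutant. B9d1 KD was the highest of the 5 conditions for Cep290, with WT at 74.4 CPM. dila was at 164 and 164 CPM against 35.1 and 37.7, and its partner Cby at 15.3 and 17.1 against 6.14 and 6.25. Mks1 (0.14) and Cc2d2a (0.10), which work in the same complex as B9d1, were level, as was Fam92 (-0.03). Centriole and basal body genes were higher for 8 and lower for 3 of 23. Cep135, needed for centriole length in the male germ line, was at 28.1 and 29.2 CPM in B9d1 KD against 120.3 and 121 in sa mutant, and Alms1b at 97.7 and 97.1 against 19.7 and 20.2.

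Several housekeeping machines have testis-specific copies, and for 4 of them the copies had a higher median than the ubiquitous genes. Testis glycolysis genes were higher for 8 of 10 (median 2.27), beside 2 of 13 canonical ones (median 0.25). The testis aldolase Ald2 was at 254 and 255 CPM in B9d1 KD and 17.5 and 17.1 in sa mutant. Testis copies of respiratory chain genes were higher for 16 of 22 (median 1.40), where the canonical nuclear genes had none. COX6AL2, a testis copy of a cytochrome c oxidase subunit, was at 145 and 153 CPM against 9.04 and 9.09. Testis proteasome subunits were higher for 8 of 15 (median 1.06) and ubiquitous subunits for none of 31, with 4 lower (median -0.45). Prosalpha4T1 was at 77.5 and 75.5 CPM against 8.12 and 9.56, and the ubiquitous lid subunit Rpn7 at 90.6 and 89.9 against 243 and 238. Germline copies of translation factors were higher for 7 and lower for 1 of 12 (median 1.26); the cap-binding eIF4E5 was at 424 and 422 CPM against 111 and 108.

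Other testis copies had lower medians. Testis copies of V-ATPase subunits were higher for 5 and lower for 2 of 14 (median 0.04), and importin and export factor paralogs were higher for 3 of 18 (median 0.24). Testis copies of ribosomal proteins had the lowest median of these lists. Of 13, 3 were higher and 2 lower, and the median was -0.71, beside -0.50 for the cytosolic ribosomal proteins. RpL10Aa was at 137 and 139 CPM in B9d1 KD and 23.8 and 22.6 in sa mutant, which was the lowest condition. RpS19b was at 77.1 and 79.4 against 170.1 and 176, where sa mutant was the highest. RpS28-like (3.00) and RpS28a (1.05) were the further higher genes and RpS14b (-1.02) the further lower one.

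**Figure D4:**
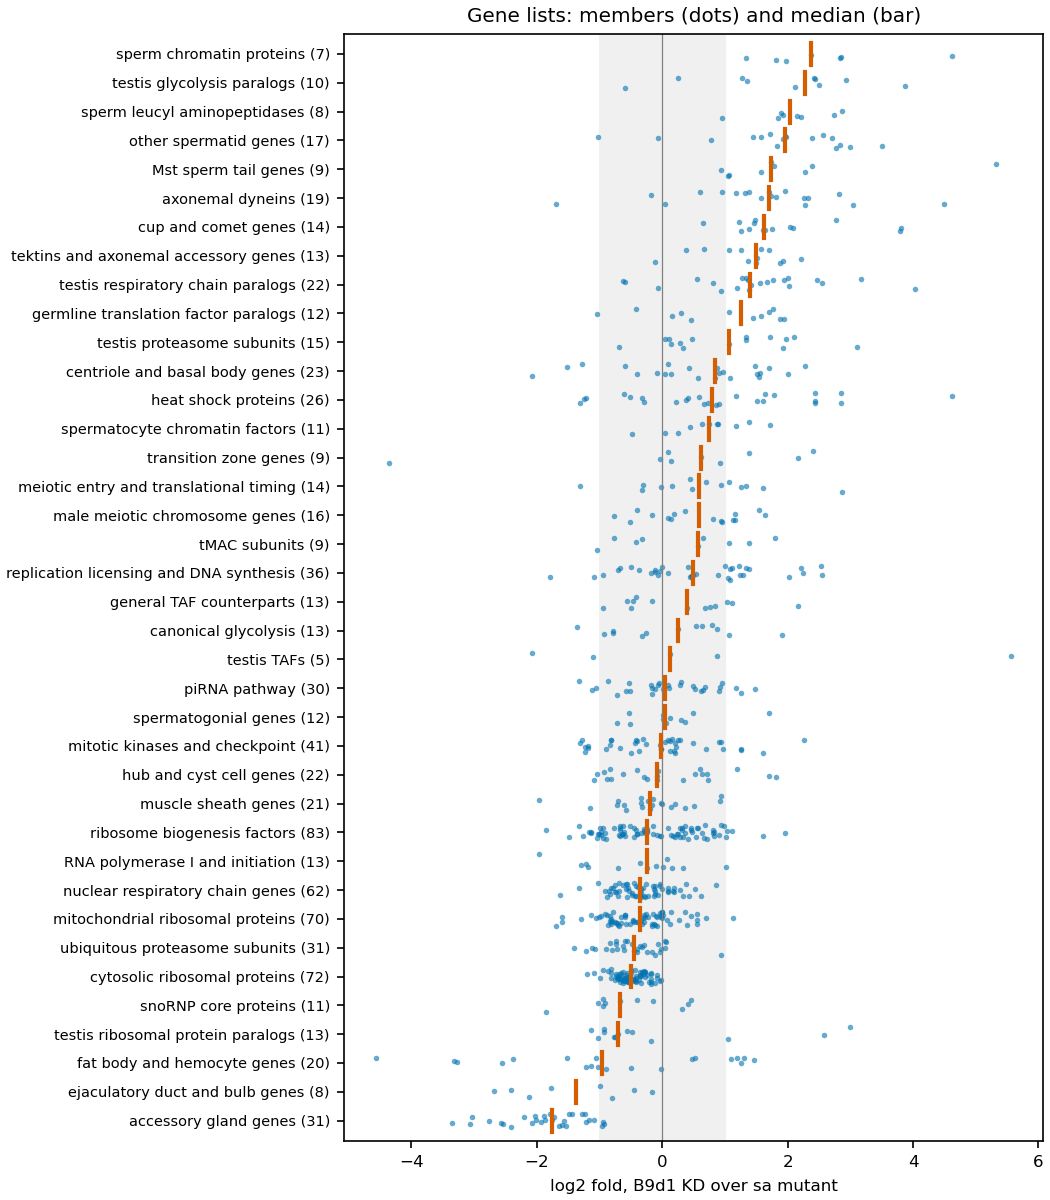
For 38 gene lists (rows, with the number of measured members), dots give each member's log2 difference, B9d1 KD over sa mutant (x axis), and orange bars the list's median; the grey band marks less than 2-fold. Medians are above 1 for the spermatid and axonemal lists and for testis paralogs of glycolysis, respiratory chain, translation factor and proteasome genes; they lie between -1 and 0 for cytosolic, mitochondrial and testis ribosomal proteins and for ubiquitous proteasome subunits, and accessory gland genes are lowest.

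The regulators that switch this programme on had medians nearer to that of all genes. Of 5 testis TAFs, sa was the one higher in B9d1 KD. Taf12L was at 59.3 and 60.1 CPM in B9d1 KD and 251 and 252 in sa mutant, and nht at 49.4 and 48.9 against 106 and 104. Both were higher in the sa mutant than in any other condition. mia (0.88) and can (0.13) were less than 2-fold apart. Of 9 tMAC genes 3 were higher and 1 lower (median 0.57). aly, a core member, was at 116 and 115 CPM against 76.0 and 79.0. The DNA-binding subunit topi was at 157 and 157 against 44.0 and 45.8, and comr at 86.2 and 83.3 against 33.5 and 31.5. Of 13 general TAF genes, Taf1, the largest TFIID subunit, differed most, at 231 and 229.9 CPM in B9d1 KD against 50.5 and 52.0 in sa mutant. Of 11 spermatocyte chromatin factors 3 were higher, among them the testis bromodomain gene tbrd-2 (1.38).

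Genes of meiotic entry gave a mixed picture. Of 14, 5 were higher in B9d1 KD and 1 lower. bol, the RNA-binding protein that allows translation of the meiotic phosphatase twe, was at 1145 and 1148 CPM in B9d1 KD and 157 and 157 in sa mutant. The sa mutant was the lowest condition for bol and WT was at 1028 CPM. twe was at 424 and 421 against 138 and 140.1. Cdk1, the kinase that twe activates, went the other way, at 56.3 and 53.7 CPM against 134 and 138, the highest of the 5 conditions. The mitotic kinase polo was at 619 and 626 CPM against 264 and 257. Of 16 male meiotic chromosome genes 5 were higher and none lower, and 2 were higher with scaling by library size alone; the cohesin subunit SA2 was at 71.2 and 71.2 against 23.5 and 22.4, and tef, needed for autosome pairing, at 19.8 and 19.1 against 5.88 and 7.30.

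Replication genes leaned towards B9d1 KD. Of 36, 14 were higher and 2 lower (median 0.49). The origin-licensing factor Cdc6 was at 12.7 and 11.0 CPM in B9d1 KD and 1.97 and 1.99 in sa mutant, and CycE, the S-phase cyclin, at 28.4 and 28.2 against 6.10 and 5.74. dap, which inhibits CycE with its kinase, was at 61.9 and 64.3 against 10.3 and 11.4. Promoter and inhibitor of S phase were thus both higher. PolA1, the primase-associated polymerase, was at 79.7 and 78.5 CPM against 17.2 and 16.9 and was highest in B9d1 KD among the 5 conditions. Mitotic kinases and checkpoint genes were 4 higher and 6 lower of 41. The separase Sse was at 14.8 and 16.3 CPM against 3.29 and 3.16, and fzr2, a testis activator of the anaphase-promoting complex, at 151 and 148 against 47.4 and 50.2.

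Genes of early germ cells were close. Of 12 spermatogonial genes 1 was higher in B9d1 KD, chinmo, at 455 and 456 CPM against 139.8 and 140.3, and none was lower. chinmo also acts in the cyst lineage. In the piRNA pathway, which silences transposons, 3 of 30 genes were higher and 3 lower. papi was at 80.4 and 86.8 CPM against 30.0 and 30.4 and aub (-1.05), vls (-1.33) and arx (-1.12) were the lower ones, aub being named after its value was seen.

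Oocyte genes included a gene with a B9d1 KD level far from every other condition. osk, the organiser of germ plasm in the egg, was at 25.9 and 25.9 CPM in B9d1 KD and 0.965 and 1.05 in sa mutant. WT was at 0.896 CPM and the other knockdowns at 0.902 and 2.48. orb, a translational regulator with a testis paralog, was at 265 and 264 against 58.6 and 56.8, but there it was the sa mutant that was low, with WT at 181. Of the 9 measured oocyte genes 5 were higher and 1 lower.

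Heat shock genes differed in both directions. Of 26 measured, 11 were higher in B9d1 KD and 3 lower. Hsp70Ab was at 84.3 and 89.4 CPM in B9d1 KD and 15.6 and 16.3 in sa mutant, and Hsp70Bb at 30.4 and 29.2 against 3.51 and 4.64. WT, raised at 22 °C like the mutant, held 80.7 CPM of Hsp70Ab and 31.9 of Hsp70Bb, close to B9d1 KD. The part of temperature in these differences was not tested. Of 5 measured Hsp70 copies 4 were higher in B9d1 KD and 1 was less than 2-fold apart, with log2 differences from -0.32 to 4.62. The Hsp70 copies are near identical and reads may be shared among them. The cognate genes Hsc70-2 and Hsc70-1 were higher in B9d1 KD as well, at 2.43 and 2.84. The 3 lower genes, named after their values were seen, were Hsc70-4 (499.7 and 498 CPM against 1236 and 1244), Hsp26 (753 and 761 against 1787 and 1819) and Hsp27 (222 and 227 against 527 and 520.2). Hsc70-4, the constitutive chaperone, was at least 2-fold lower in B9d1 KD than in every other condition.

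Genes of other tissues were measured to see what the dissected samples held. Accessory gland genes, for seminal fluid proteins made outside the testis, were lower in B9d1 KD for 28 of 31 and higher for none (median -1.76). Their summed level was 652 and 664 CPM in the B9d1 KD libraries, against 1896 and 1873 in the sa mutant libraries. It was 56.5 CPM in WT and 3759 under the label Klp59D KD, a range wider than that between the pair. Mst57Db, one of these genes, was at 20.3 and 21.5 CPM against 176 and 175, and at 0.414 in WT. No measured member was at 0 in either condition. Ejaculatory duct and bulb genes were lower for 4 of 8 (summed 114 CPM against 352), with Est-6 at 31.8 and 29.8 against 203 and 194.

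Markers of the testis sheath and somatic support cells were closer. Muscle sheath genes summed to 1497 and 1507 CPM in the B9d1 KD libraries, against 1485 and 1466 in the sa mutant libraries, 2 of 21 were lower, and WT held 5365 CPM. Hub and cyst cell genes, for the somatic niche and envelope of the germ line, were 3 higher and 2 lower of 22 and summed to 819.6 CPM against 522. Fat body and hemocyte genes were lower for 10 of 20 and higher for 5, and their sums were close, at 1106 CPM against 1087. The antimicrobial peptide gene AttC was at 2.92 and 3.35 CPM against 33.1 and 30.6, with WT at 67.3. Neural genes summed to 809 CPM against 603, with 4 higher and 3 lower of 15. The part of these tissues in the differences of other genes was not tested.

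**Figure D5:**
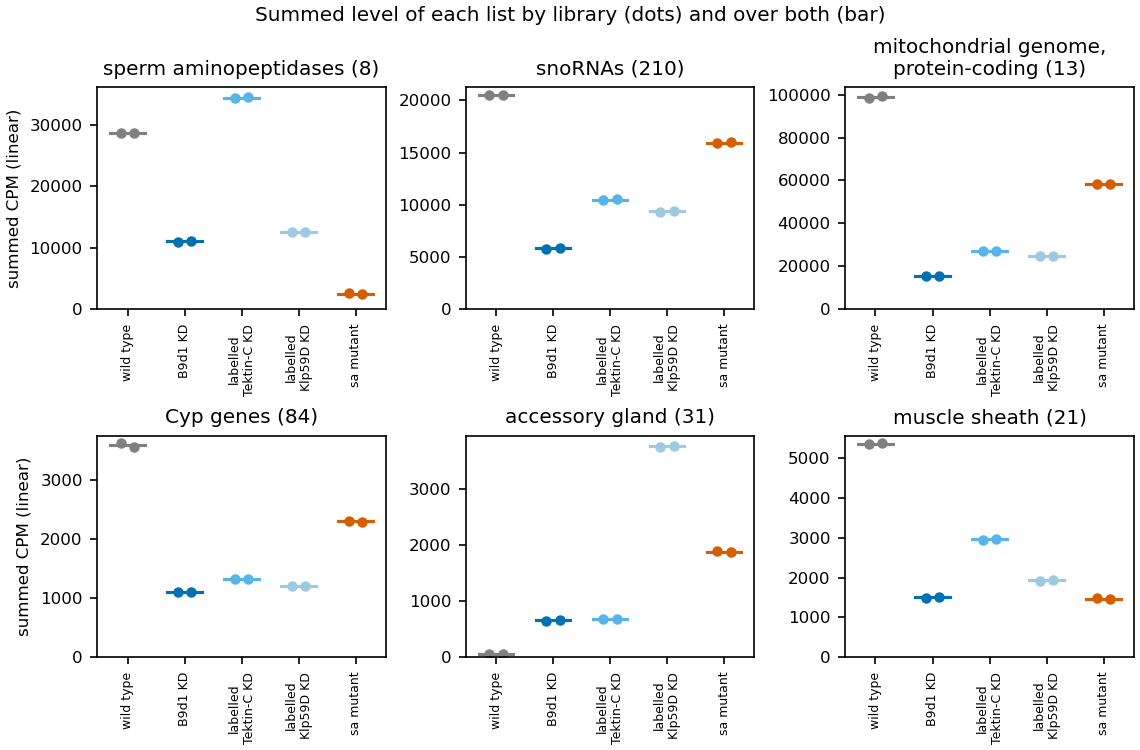
Summed CPM (y axis, linear from 0) of 6 gene groups in the 5 conditions (x axis), with a dot for each library and a bar for the 2 libraries summed. B9d1 KD and sa mutant have similar muscle sheath levels, while snoRNAs, mitochondrial genes and Cyp genes are lower in all 3 knockdowns than in WT and sa mutant.

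The genes with the largest differences were taken from those with a mean of at least 4 on the log2 CPM scale. Apart from sa, the largest difference among genes with a name was t-Grip91, a testis relative of a gamma-tubulin ring protein, at 324 and 326 CPM in B9d1 KD and 7.50 and 9.02 in sa mutant. This was 39.1-fold (95% interval 35.4 to 43.3), and WT was at 242 CPM. salto was at 1811 and 1779.7 against 84.4 and 86.6. Cap-G, a condensin subunit, was at 149 and 151 CPM against 8.38 and 8.43. ProtB, COX6AL2 and Ald2 described above were also among the 10. Mst33A (4.04), Tengl4 (3.92) and Bfc (3.88) made up the rest. In each of the 10 the sa mutant was the lowest of the 5 conditions. The largest among genes known by a CG number were CG33489, CG32106, CG10734, CG10317 and CG33125, with log2 differences from 4.25 (CG33125) to 5.55 (CG33489), and the sa mutant was again the lowest condition for each.

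Among the genes lower in B9d1 KD, B9d1 led and most of the others split into a few patterns. Cyp4g1, a cytochrome P450 that makes cuticular hydrocarbons, was at 9.17 and 11.6 CPM in B9d1 KD and 98.3 and 98.8 in sa mutant. It was at 11.0 and 16.0 CPM in the other knockdowns and at 195 in WT. bero (-3.21), Tsp42Ei (-2.71), Est-6 (-2.69), Cyp4p1 (-2.67), CG42828 (-3.70), CG31380 (-3.54) and CG8852 (-3.38) had the same order, low in all 3 knockdowns and high in WT and sa mutant. Driver and temperatures are shared by the knockdowns and cannot be told apart. A second pattern was that of the accessory gland genes, with Mst57Db (-3.06), CG42481 (-3.06) and CG42852 (-2.58) near 0 CPM in WT. In the third, Galphaf (-2.99), Spt7 (-2.78) and PIG-H (-2.62) were highest in sa mutant alone. The G protein gene Galphaf was at 7.23 and 6.01 CPM against 53.0 and 52.1, with WT at 6.76. The exons of these 3 genes overlap a gene on the other strand.

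Detoxification families, chosen after values were seen, had more members lower in B9d1 KD than higher. Of 84 measured Cyp genes 37 were lower in B9d1 KD and 10 higher, and their summed level was 1105 CPM in B9d1 KD, 2301 in sa mutant and 3593 in WT. Of 25 Ugt genes, which conjugate sugars to small molecules, 13 were lower and 2 higher. Of 33 glutathione transferase genes 11 were lower and 1 was higher. Ugt genes summed to 301 CPM in B9d1 KD, 497 in sa mutant and 770 in WT, the order of the Cyp sums. The glutathione transferases had another order, with 3664 CPM in B9d1 KD, 5727 in WT and 6254 in sa mutant, the highest.

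By chromosome, X-linked genes had the lowest median of the nuclear arms. Of 2068 measured X-linked genes 362 were higher in B9d1 KD (17.5%) and 339 lower (16.4%), with a median of -0.11. The 4 large autosome arms had medians from 0.05 to 0.09, and 24.7% to 26.4% of their genes were higher. On chromosome 4, the smallest, 21 of 95 genes were higher and 4 lower (median 0.25). Of 8 genes of dosage compensation, which raises X transcription in somatic cells, 2 were lower, none was higher and the median was -0.26. Of the lower ones, the helicase gene mle was at 55.7 and 55.1 CPM in B9d1 KD against 154 and 155 in sa mutant, and the noncoding RNA roX2, lncRNA:roX2, at 22.4 and 22.8 against 64.7 and 60.3. The sa mutant was the highest condition for mle, while lncRNA:roX2 was low in all 3 knockdowns and at 81.7 CPM in WT. Of 13 Y-linked genes of the list 5 were higher and 1 lower; ARY was at 67.6 and 66.1 CPM against 15.9 and 17.1, and ORY (-1.03), named after its value was seen, was the lower one.

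Both the share higher and the share lower were smaller in the longest genes than in the shortest, while median differences had no steady relation to length. Among nuclear protein-coding genes split into 5 equal classes by exonic length, from up to 992 bases to at least 3691 bases, the shares lower in B9d1 KD were 17.2%, 18.7%, 17.1%, 12.5% and 8.11%. The shares higher were 31.3%, 22.4%, 20.9%, 18.5% and 18.8%. The class medians were 0.09, -0.11, -0.07, 0.01 and 0.20, so that both the shortest and the longest class lay above the middle ones. The part of length in the differences was not tested.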

How the data were processed

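RNA-seq of rRNA-depleted testis RNA was read from the deposited tables, which hold raw whole-number counts per gene for each library and which the authors made on the dm6 genome with the aligner STAR 2.5.1b after trimming by Trim Galore 0.4.1, per the submitters' processing notes. For the counting program, its strand setting, the treatment of multiply matching reads and the annotation release, no source used here gives a statement. Of 17412 gene identifiers 17138 matched a symbol in the Ensembl annotation.

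The 2 libraries of each condition were summed, because they differed by little more than counting error. Whether they came from separate dissections is not given. In each of the 5 conditions library 2 held between 1.111 and 1.124 times the counts of library 1. Genes were kept with edgeR 4.0.16 filterByExpr over all 10 libraries (13831 genes), scaled by TMM over the 5 summed conditions, and compared as log2 CPM with a prior count of 2. Intervals are exact (Clopper-Pearson, 95%). The floor for a count of 0 was 3 counts per summed condition, 0.0519 CPM in B9d1 KD and 0.0620 CPM in sa mutant. Fold calculation was run on simulated counts in which 200 of 13831 genes, none of low count, were changed by more than 2-fold. Equal numbers went up and down, and all were called in the right direction (100%). Far fewer genes differed there than in the real pair, so the run checks the arithmetic only and not the scaling or low counts. No main result rests on a test between conditions. Tests by edgeR and DESeq2 1.42.0 served as alternatives only, with an adjusted p threshold of 0.05.

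Named genes are those targeted in the series, up to 5 members of each list with the largest difference or the member nearest the median (all members of lists of up to 10), and the 10 named and 5 CG-numbered genes with the largest difference in each direction at a mean log2 CPM of at least 4; exceptions are said. Members and lists were chosen with earlier results of these data known. The lists hold 1082 genes with an identifier, 1060 of them measured, and 25 names matched none. Same-numbered libraries deviated together: the correlation of their differences was 0.21 between B9d1 KD and sa mutant and 0.12 to 0.22 over all pairs of conditions, so the numbers pair the libraries by the data, not by the labels.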

Additional observations from a re-analysis of the deposited data

How the results depend on the processing

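The count of genes at least 2-fold apart depended little on the processing. With only genes above 5 CPM in at least 2 of the 4 libraries, 9974 genes were compared and the count fell from 5541 to 3691, with 1338 rather than 2229 lower in B9d1 KD, since fewer genes were compared. Every other alternative run gave counts within 1.5 times of the main ones in total and in each direction: RLE factors, library size alone, TMM from the 4 libraries, no filter, filterByExpr over the 4 libraries, leaving out structural and mitochondrial RNAs, a prior count of 0.5, the edgeR quasi-likelihood fits and DESeq2. Leaving out each library in turn gave 5548 to 5578 genes apart. The edgeR fit with the replicate block, which treats same-numbered libraries as paired, called 5555 genes beyond 2-fold at an adjusted p below 0.05. Without the block edgeR called 5548 over 10 libraries and 5585 over 4, and DESeq2 called 5343; these tests treat the 2 libraries of a condition as replicates, which they may not be.

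No median of a list, chromosome or named gene that was past 2-fold changed sign under any alternative. Of the list medians recomputed, 775 stayed within counting error and 103 moved, and of member counts 1665 stayed within 1.5 times and 91 moved. Some medians within 0.2 of 0 changed sign. With scaling by library size alone these were the testis TAF, spermatogonial, piRNA, growth signalling and V-ATPase lists, protein-coding genes, pseudogenes and chromosome arms 2L, 2R, 3L and 3R, and the mitotic and translation factor lists changed sign with RLE factors. That library-size scaling also took the members lower in B9d1 KD from 7 to 16 for mitochondrial ribosomal proteins, 3 to 8 for nuclear respiratory chain genes, 2 to 6 for hub and cyst cell genes and 1 to 5 for meiotic cytokinesis genes, besides the counts given with the ribosome biogenesis, snoRNP, ribosomal protein and meiotic chromosome genes. Above 5 CPM, the nuclear tRNA genes lower fell from 18 to 1 and the methylation-guide snoRNAs from 43 to 26, since fewer were compared. Genes with few counts have wide intervals: at the floor of 3 counts, 34 measured genes had no count in sa mutant and 27 none in B9d1 KD.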

Other observations

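A few genes outside the named lists, chosen after their values were seen, set the 2 conditions apart in other ways. RabX2, a Rab GTPase gene, had no count in either B9d1 KD library and 25.3 and 25.4 CPM in the sa mutant libraries, at least 489-fold higher in sa mutant by the summed level against the floor of 3 counts; with the counting error of both sides, the exact 95% lower limit was 397-fold. It was also at 0 in both libraries labelled Tektin-C KD and at 0.0347 CPM under the label Klp59D KD, with WT at 11.5 CPM. Bili, a FERM-domain gene, was at 57.8 and 55.1 CPM in B9d1 KD and 4.52 and 5.19 in sa mutant. WT was at 1.86 CPM and the other knockdowns at 6.11 and 14.1, which left B9d1 KD the highest of the 5 conditions.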
